A study of Mus musculus with 4 samples.

Results

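The loci described here are those of 5 genes of 1 chemokine axis: the receptor gene Cxcr3, the genes of its ligands Cxcl9, Cxcl10 and Pf4, and Dpp4, the gene of a protease that trims such ligands. Each locus is the gene body plus 50 kb on either side (mm10), and every accessible interval that overlapped it was taken, 176 of the 326193 intervals of the series. Intervals of different libraries that overlapped were joined, which gave 63 regions of 120423. The assay was Omni-ATAC-seq, where a transposase cuts and tags open DNA. The 4 groups had 1 library each, all from C57BL/6J mice: CMP/GMP (common myeloid progenitors and granulocyte-monocyte progenitors) and monocytes, each from wild-type (WT) and from Cxcr3-/- animals. The labels give hepatocellular carcinoma as the disease, whereas the design text describes cells cultured in vitro, and neither the age of the animals nor the deleted part of Cxcr3 is given in the sources used here. The labels speak of sequencing in duplicate, and whether runs were pooled is not stated. With 1 library per group no difference below has a replicate check, and every interval given covers counting error only.

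CXCR3 is a G protein-coupled receptor best known from activated T cells and NK cells, and it is also found on some myeloid cells. CXCL9 and CXCL10 are induced by interferon-gamma and NF-kB signalling and draw CXCR3-bearing cells to inflamed tissue, while PF4 is a platelet chemokine made mainly by megakaryocytes. DPP4 is a cell-surface peptidase that removes the first residues of CXCL9 and CXCL10, and the shortened CXCL10 binds CXCR3 without activating it well.

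The 250 bases before each annotated start are shown because 4 of the 5 genes had an accessible region over or beside the start and Cxcl9 had none. Sequences are from RefSeq (GRCm38.p6), 5′ to 3′ on the strand of the gene, and capitals mark the matches to the motifs named in the next paragraph. They lie at chrX:101734148-101734397 (Cxcr3, minus strand), chr5:92328080-92328329 (Cxcl9, minus), chr5:92348890-92349139 (Cxcl10, minus), chr5:90772185-90772434 (Pf4, plus) and chr2:62412232-62412481 (Dpp4, minus).
Cxcr3: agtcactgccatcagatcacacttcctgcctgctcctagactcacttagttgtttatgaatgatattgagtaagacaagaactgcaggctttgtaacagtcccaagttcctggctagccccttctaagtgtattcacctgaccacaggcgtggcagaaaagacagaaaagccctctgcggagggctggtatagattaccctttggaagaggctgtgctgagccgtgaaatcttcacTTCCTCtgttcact
Cxcl9: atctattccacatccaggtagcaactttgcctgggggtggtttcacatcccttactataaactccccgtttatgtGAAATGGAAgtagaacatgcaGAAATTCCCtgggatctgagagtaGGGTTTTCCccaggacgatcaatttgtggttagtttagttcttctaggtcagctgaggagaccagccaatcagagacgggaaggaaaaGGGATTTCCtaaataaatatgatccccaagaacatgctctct
Cxcl10: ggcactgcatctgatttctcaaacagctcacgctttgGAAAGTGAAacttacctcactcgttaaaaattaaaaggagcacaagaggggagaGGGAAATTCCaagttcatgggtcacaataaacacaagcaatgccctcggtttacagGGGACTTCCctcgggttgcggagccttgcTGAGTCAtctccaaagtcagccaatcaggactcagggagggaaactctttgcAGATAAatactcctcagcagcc
Pf4: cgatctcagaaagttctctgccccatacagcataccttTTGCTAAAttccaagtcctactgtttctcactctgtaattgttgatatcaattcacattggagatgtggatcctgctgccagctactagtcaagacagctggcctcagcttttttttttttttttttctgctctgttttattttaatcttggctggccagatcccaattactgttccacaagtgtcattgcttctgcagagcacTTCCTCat
Dpp4: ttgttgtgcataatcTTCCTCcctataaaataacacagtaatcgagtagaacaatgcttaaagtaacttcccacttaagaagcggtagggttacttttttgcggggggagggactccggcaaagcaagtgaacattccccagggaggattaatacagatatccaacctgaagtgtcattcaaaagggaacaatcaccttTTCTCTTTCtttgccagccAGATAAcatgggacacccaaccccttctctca

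Motifs were searched on both strands as plain letters, and a match describes the letters only. The interferon-stimulated element GAAANNGAA was found in Cxcl9 (175 to 167 bases before the start), Cxcl10 (213 to 205) and Dpp4 (51 to 43), and in 6.83% of 21238 promoter windows of the same length. NF-kB letters were found in both interferon-induced ligand genes and in none of Pf4, Cxcr3 and Dpp4. GGGANNTTC matched once each in Cxcl9 and Cxcl10 (3.12% of windows), and GGAANNNCC matched at 2 sites in each (16.3% of windows), 1 of the Cxcl10 sites overlapping its GGGANNTTC match. Pf4 had 1 C/EBP match, TTGCNNAA (9.1% of windows), and Cxcl10 1 AP-1 match, TGANTCA (6.14%). The PU.1 letters GAGGAA, bound by a factor of myeloid cells, lay 14 to 9 bases before the Cxcr3 start, 8 to 3 before Pf4 and 235 to 230 before Dpp4 (22.3% of windows). The GATA letters AGATAA were found in Cxcl10 and Dpp4 (8.81% of windows). GAS (TTCNNNGAA), T-box (AGGTGTGA) and HNF1 (GTTAATNNT) letters were in none of the 5 windows and in 6.57%, 0.998% and 2.02% of all windows.

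The lists held 69521 (WT) and 80171 (Cxcr3-/-) intervals for CMP/GMP and 98257 (WT) and 78244 (Cxcr3-/-) for monocytes, and the loci held 37, 45, 50 and 44 of them in that order, which is kept below wherever 4 values follow each other. The summit pileup is the number of tags stacked at an interval's highest point, and its median was 21, 29, 21 and 21 tags. Pileups were scaled by the library medians over 44589 regions called in all 4 libraries, with factors of 0.791, 1.29, 1.11 and 0.879. Summed over each list, marker loci followed the labelled cell types. At the ends of 10 CMP/GMP marker genes the summed scaled pileup was 546 and 572 in CMP/GMP and 184 and 206 in monocytes. Mpo and Elane (granule proteins) were called in CMP/GMP only. At 10 monocyte marker genes the sum was 370 and 423 in CMP/GMP and 514 and 492 in monocytes. Under scaling by the background pileup, a different measure of depth, the sums were 384, 430, 303 and 237 at the CMP/GMP markers. At the monocyte markers they were then 260, 317, 846 and 567. A call at a gene end was present for 58.3%, 61.0%, 60.6% and 57.5% of all protein-coding genes. Of 8 T and NK cell markers 2, 2, 2 and 1 had one, with none at Cd3e, Cd3g, Cd8a, Ncr1 or Lck, and of 7 megakaryocyte markers 2, 2, 2 and 1, with none at Gp1ba, Gp1bb or Treml1. Single markers of both lists went both ways. Cebpe of the CMP/GMP list had log2 ratios of monocytes to CMP/GMP of 0.585 in WT and −0.21 in Cxcr3-/-. Under scaling by background the WT ratio was 0.46, 0.27 and 0.80 at Prtn3, Cd34 and Myb of that list. At Kit, Flt3 and Gfi1 it stayed below 0, at −0.85, −0.11 and −0.98. The monocyte markers were mixed as well. The strongest region at an end of Csf1r had 46 and 70 tags in WT and Cxcr3-/- CMP/GMP and no call in monocytes, while another region there was called in both monocyte libraries and in no other. Ly6c2 had log2 ratios of monocytes to CMP/GMP of −0.68 in WT and −0.63 in Cxcr3-/- (0.55 and −0.01 under scaling by background). Ccr2 was at −0.60 in WT (0.63 under that scaling) with no call in Cxcr3-/- monocytes.

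With the 50 kb flanks, the Cxcl9 and Cxcl10 loci held more accessible intervals than the median gene locus and the Cxcr3 locus fewer. Over the loci of all protein-coding genes the median was 7, 8, 9 and 7 intervals. The quartiles were 3 and 11, 3 and 12, 3 and 15, and 3 and 12. Cxcl10 (chr5:92346638-92348889, minus strand) held 18 and 19 intervals in CMP/GMP (WT, then Cxcr3-/-) and 18 and 17 in monocytes (same order), and only 4.22%, 6.15%, 15.3% and 9.03% of protein-coding genes had as many. Cxcl9 (chr5:92321331-92328079, minus strand) held 16, 17, 15 and 15, most of them shared with Cxcl10 because the loci overlap. Cxcr3 (chrX:101731535-101734147, minus strand) held 4, 4, 7 and 6, a number reached by 60.3% to 72.8% of genes and within the quartiles in every library. Pf4 (chr5:90772435-90773383, plus strand) held 5, 9, 13 and 11, reached by 64.7%, 45.3%, 34.5% and 31.0% of genes. Dpp4 (chr2:62330073-62412315, minus strand) held 8, 11, 10 and 7, reached by 44.4%, 33.8%, 49.3% and 54.7%. The lists differ in length, and with the strongest intervals of each taken up to an equal number the loci held 37, 39, 37 and 40 in all. Pf4 then held 5, 7, 10 and 10, Dpp4 8, 9, 5 and 6, and Cxcr3 4, 4, 5 and 5. With 10 kb flanks and the full lists, Cxcl10 held 3, 3, 2 and 2, Cxcl9 5, 5, 5 and 3, and Cxcr3 1, 2, 3 and 3. Most intervals of the Cxcl9 and Cxcl10 loci thus lay further out in the flanks.

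**Figure D1:**
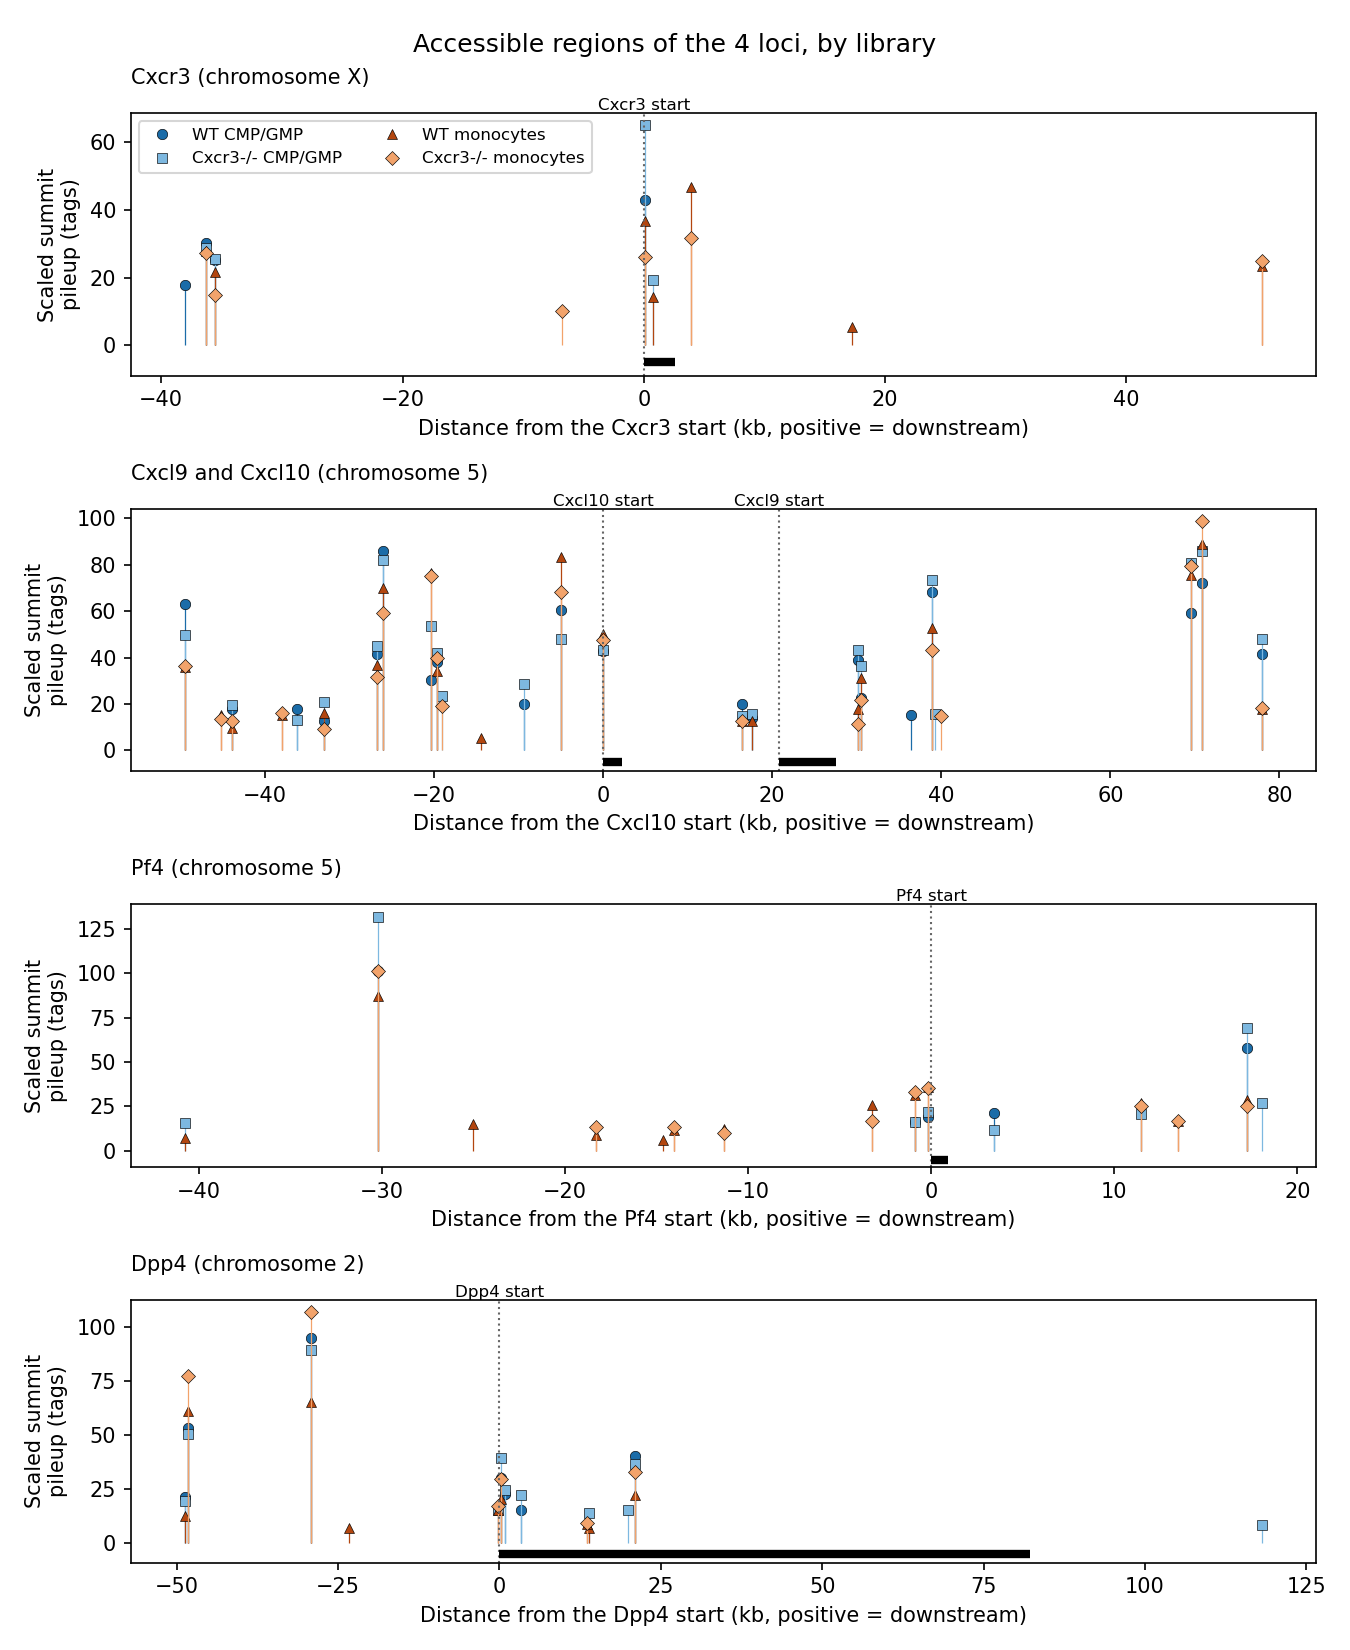
Scaled summit pileup (tags, vertical axis) of each accessible region against its distance from the gene start in kb (horizontal axis; positive is downstream; the Cxcl10 start where Cxcl9 and Cxcl10 share a panel), 1 panel per locus, 1 symbol per library, with black bars for the gene bodies. A library has a symbol only where it had a call: the Cxcl9 start has none near it, and the highest symbols of the Pf4 and Dpp4 panels stand about 30 kb upstream of the starts.

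Regions called in all 4 libraries were the most frequent in these loci, and a split by genotype was seen at 1 region. Of the 63 regions 27 (42.9%) were called in all 4 libraries, beside 37% of all regions. A further 10 were called in both monocyte libraries and in neither CMP/GMP library (14.4% of all regions), of which 5 were in the Pf4 locus, 2 each in the Cxcr3 and the Cxcl9 and Cxcl10 loci and 1 in Dpp4. In both CMP/GMP libraries and neither monocyte library there were 5 (7.28% of all regions): 2 in Dpp4, 2 in the Cxcl9 and Cxcl10 locus and 1 in Pf4. None was called in both WT libraries and neither Cxcr3-/- library (0.774% of all regions). The reverse held for 1 region (0.492% of all), a call of 30 and 17 tags in Cxcr3-/- CMP/GMP and Cxcr3-/- monocytes at chr5:92367880-92368085 in Art3, and it was not separate when intervals within 150 bp were merged. Calls in 1 library only made up 13 regions (25.6% of all regions), 2, 4, 5 and 2 of them in WT and Cxcr3-/- CMP/GMP and WT and Cxcr3-/- monocytes. Another 4 regions (6.35%) were called in 3 libraries, beside 11.7% of all regions. The remaining 3 (4.76%) were called in 2 libraries of unlike genotype and cell type, beside 2.68%. Apart from calls in 3 libraries, the shares of the members lay near those of all regions.

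The receptor gene had an accessible start in all 4 libraries. The region over the Cxcr3 start, chrX:101733698-101734465, reached 34 (WT) and 84 (Cxcr3-/-) tags in CMP/GMP and 41 (WT) and 23 (Cxcr3-/-) in monocytes, or 43.0, 65.1, 36.8 and 26.2 scaled tags. With this scaling Cxcr3-/- CMP/GMP was the highest and Cxcr3-/- monocytes the lowest, so the 2 WT libraries lay between the 2 Cxcr3-/- libraries. That order did not hold under scaling by background, where WT monocytes lay above both WT CMP/GMP and Cxcr3-/- monocytes. The log2 ratio of Cxcr3-/- to WT was 0.60 in CMP/GMP (95% counting interval 0.01 to 1.22) and −0.49 in monocytes (−1.30 to 0.28). The first interval spanned 0 (0.57, −0.02 to 1.19) when chromosome X alone set the scale, and the second excluded it (−1.01, −1.81 to −0.24) under scaling by background. Between cell types the log2 ratio of monocytes to CMP/GMP was −0.22 in WT (−0.92 to 0.48) and −1.32 in Cxcr3-/- (−2.05 to −0.64), which became 1.00 and −0.70 under scaling by background. The summits lay within 35 bp of the annotated start in every library. Both Cxcr3-/- libraries thus had tags across the start and the first part of the gene, and since the deleted part is not given here this is no check of the genotype labels.

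Among regions that cover a gene start, the authors' fold enrichment at Cxcr3 was at or above that of 47.8%, 66.6%, 32.2% and 20.2% in WT and Cxcr3-/- CMP/GMP and WT and Cxcr3-/- monocytes. Of 9819 protein-coding genes with a comparable region at a gene end, 1144 had a 4-library profile within a distance of 0.5 (Euclidean, log2 scaled pileup after subtraction of the mean). The nearest was Elof1 (distance 0.10; 35, 85, 45 and 23 tags). The profile of Cxcr3 was therefore shared by many genes.

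Downstream of the receptor gene lay a region that was called in monocytes only. At chrX:101730082-101730329, beyond the 3′ end of the gene and 3818 bp downstream of its start, the pileup was 52 tags in WT monocytes and 28 in Cxcr3-/- monocytes, and neither CMP/GMP library had a call. An equal scaled pileup would have given 31.1 tags in WT CMP/GMP and 50.6 in Cxcr3-/- CMP/GMP, as high as or higher than 71.3% and 74.6% of the called intervals there. Intervals of that height were thus commonly called in CMP/GMP. The Cxcr3-/- to WT log2 ratio in monocytes was −0.55 with an interval that spans 0 (−1.27 to 0.14), and −1.07 under scaling by background. In the gene itself, chrX:101733312-101733521 was called in Cxcr3-/- CMP/GMP (25 tags) and WT monocytes (16 tags). Another monocyte-only region, chrX:101682733-101683062 in Ogt (an enzyme that adds N-acetylglucosamine to proteins), had 26 and 22 tags in WT and Cxcr3-/- monocytes.

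Upstream of Cxcr3, chrX:101769503-101769879 and chrX:101770273-101770669, 35356 and 36126 bp from the start, were called in all 4 libraries. The first had 20, 33, 24 and 13 tags and the second 24, 37, 31 and 24 in WT and Cxcr3-/- CMP/GMP and WT and Cxcr3-/- monocytes. After scaling the libraries lay close together in the second region. The remaining Cxcr3 regions were weak calls of 1 library, with 6, 9 and 14 tags.

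The 2 interferon-induced ligand genes differed at their starts. The region over the Cxcl10 start, chr5:92348759-92349145, reached 34 (WT) and 56 (Cxcr3-/-) tags in CMP/GMP and 56 (WT) and 42 (Cxcr3-/-) in monocytes, or 43.0, 43.4, 50.3 and 47.8 scaled tags. The scaled values lay within each other's counting intervals. In log2 terms the ratio of Cxcr3-/- to WT was 0.02 in CMP/GMP and −0.07 in monocytes, and all 4 ratios had intervals that span 0. Under scaling by background the ratio of monocytes to CMP/GMP was 1.45 in WT (0.81 to 2.11) and 0.75 in Cxcr3-/- (0.14 to 1.36), and that of Cxcr3-/- to WT was −0.59 in monocytes (−1.20 to 0.01). All 4 summits lay 47 to 94 bp before the start, within the printed window. In fold enrichment this region was at or above 24.6%, 26.8%, 42.3% and 37.6% of start regions, and 4647 of the 9819 genes had a profile within 0.5 of it. The nearest profiles were those of 1700125H20Rik and Usp32 (0.01) and Cfap45 (0.03).

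The Cxcl9 start lay in no interval of any library. The nearest summits were 3228, 3199, 3224 and 4415 bp upstream in WT and Cxcr3-/- CMP/GMP and WT and Cxcr3-/- monocytes, and their pileups were 11, 20, 14 and 11 tags. These were low calls: the fold enrichment was at or above that of 6.02%, 25.8%, 41.5% and 32.8% of the intervals of the same list. Of 21238 annotated protein-coding starts, 46.8% lay in no region and 47.3% in a region called in all 4 libraries, so the absence at Cxcl9 was common and the presence at Cxcl10 was too.

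**Figure D2:**
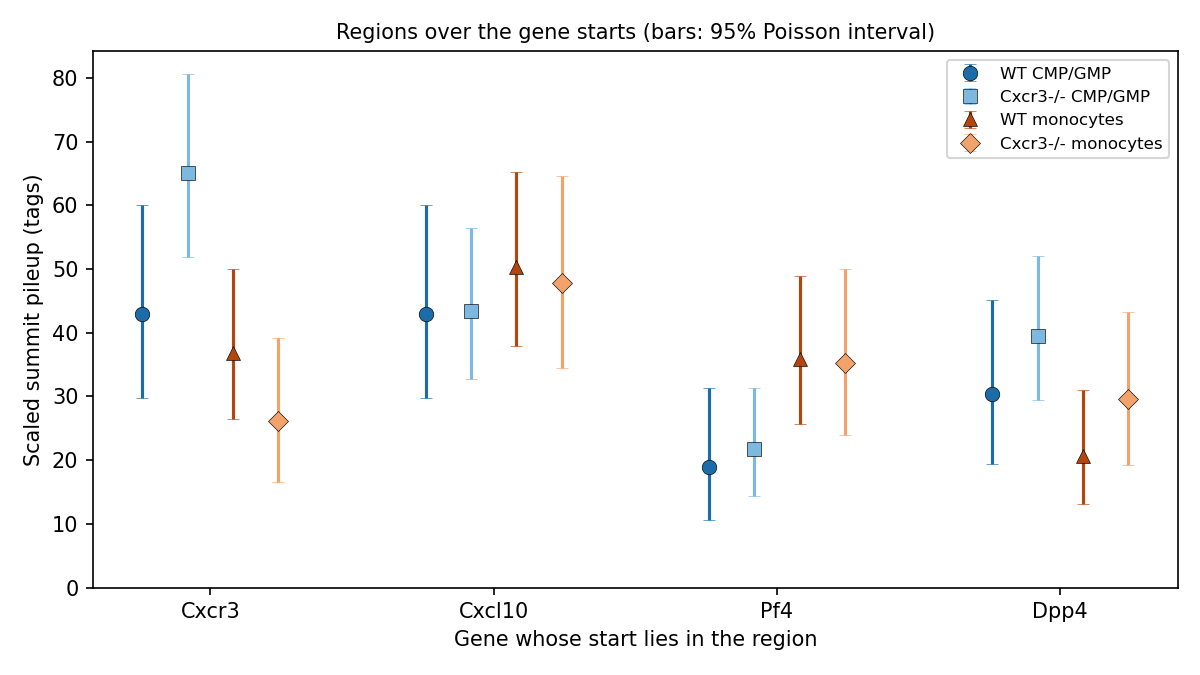
Scaled summit pileup (tags, vertical axis, from 0) of the region over the start of Cxcr3, Cxcl10, Pf4 and Dpp4 in each of the 4 libraries, with 95% Poisson intervals for counting error as bars. Cxcl9 is not drawn because its start had no call. With the median scaling drawn here, Cxcr3 is highest in Cxcr3-/- CMP/GMP at 65.1 and lowest in Cxcr3-/- monocytes at 26.2. Cxcl10 stays between 43.0 and 50.3. The order at Cxcr3 was another under scaling by background.

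Around the Cxcl9 and Cxcl10 genes some regions were higher and some lower in monocytes. A region in the body of Art3 (an ADP-ribosyltransferase-like gene that overlaps Cxcl10), chr5:92369092-92369414, 20203 bp upstream of Cxcl10, had 24 (WT) and 69 (Cxcr3-/-) tags in CMP/GMP and 85 (WT) and 66 (Cxcr3-/-) in monocytes. Once scaled, WT CMP/GMP stood lowest, Cxcr3-/- CMP/GMP next and the 2 monocyte libraries highest and close together. The log2 ratio of monocytes to CMP/GMP was 1.33 in WT (0.66 to 2.05) and 0.49 in Cxcr3-/- (−0.02 to 1.00), and it was positive under scaling by background as well. The ratio of Cxcr3-/- to WT was 0.82 in CMP/GMP (0.13 to 1.55) and −0.02 in monocytes (−0.51 to 0.46), the latter −0.54 under scaling by background.

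At some regions downstream of Cxcl9 the order was the reverse. At chr5:92318621-92318945, 9134 bp downstream of the start, the pileup was 31, 56, 20 and 10 tags in WT and Cxcr3-/- CMP/GMP and WT and Cxcr3-/- monocytes. In log2 terms the ratio of monocytes to CMP/GMP was −1.12 in WT (−2.01 to −0.27) and −1.93 in Cxcr3-/- (−3.07 to −0.95), and it became 0.10 and −1.32 under scaling by background. The adjacent region, chr5:92318239-92318527, had 18, 47, 35 and 19 tags, and its ratio was 0.47 in WT and −0.75 in Cxcr3-/-. A region in Naaa (a lipid amidase gene) at the edge of the locus, chr5:92270494-92271357, had 33, 62, 20 and 16 tags and ratios of −1.22 in WT and −1.40 in Cxcr3-/-, which became 0.01 and −0.79. Of that region's intervals only the Cxcr3-/- monocyte interval reached into the locus, so it lies just at the 50 kb limit. Other regions downstream of Cxcl9 were mixed. The ratio was 0.30 in WT and 0.20 in Cxcr3-/- at the Naaa start, 0.345 and −0.02 at the region beside it, and −0.365 and −0.77 at the Sdad1 start.

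Other regions near the ligand genes were called in 1 cell type only. In Art3, 9236 bp upstream of Cxcl10, chr5:92358125-92358377 was called in CMP/GMP only, with 16 tags in WT and 37 in Cxcr3-/-, as was chr5:92384955-92385143 with 14 and 17. The Art3 start, chr5:92386730-92386914, was called in monocytes only, with 17 and 14 tags in WT and Cxcr3-/-, and so was chr5:92393991-92394294 with 17 and 12. Regions shared by all 4 libraries lay over the starts of Naaa (57, 111, 99 and 87 tags) and Sdad1 (54, 95, 59 and 38 tags). Cxcl11, the gene of the remaining CXCR3 ligand and annotated as a pseudogene here, had a single call of 6 tags, in WT monocytes.

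The start of the platelet ligand gene Pf4 was higher in both monocyte libraries than in both CMP/GMP libraries. The region over its start, chr5:90771888-90772627, reached 15 (WT) and 28 (Cxcr3-/-) tags in CMP/GMP and 40 (WT) and 31 (Cxcr3-/-) in monocytes, or 19.0, 21.7, 35.9 and 35.3 scaled tags. The scaled values of the 2 monocyte libraries lay above those of both CMP/GMP libraries, and the counting intervals of the 4 libraries overlapped. The log2 ratio of monocytes to CMP/GMP was 0.92 in WT (0.03 to 1.88) and 0.70 in Cxcr3-/- (−0.09 to 1.49), and 2.15 and 1.32 under scaling by background. The region beside it, chr5:90771380-90771783, had 13, 21, 35 and 29 tags, with ratios of 0.94 (−0.02 to 1.98) and 1.02 (0.16 to 1.90). In fold enrichment the Pf4 start was low among start regions, at or above 5.78%, 16.0%, 21.9% and 22.1% of them.

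Pf4 stands in a cluster of CXC ligand genes, and several of its neighbours had calls in monocytes only. Ppbp, the gene of another platelet chemokine, had 29 tags in WT monocytes and 15 in Cxcr3-/- monocytes at chr5:90769117-90769275 and no call in CMP/GMP. The start of Cxcl3, a neutrophil-attracting ligand, had 19 and 15 tags at chr5:90785645-90786177. Cxcl5, of the same kind, had 14 and 9 tags within the gene. At an equal scaled pileup WT CMP/GMP would have shown 17.1 tags at Ppbp, 13.5 at Cxcl3 and 9.0 at Cxcl5, as high as or higher than 39.3%, 21.4% and 2.94% of the intervals called there. In Cxcr3-/- CMP/GMP the same shares were 47.8%, 36.4% and 9.95%. Few intervals as low as that at Cxcl5 were called in either CMP/GMP library. Over the 7 megakaryocyte markers, of which Ppbp is 1, the summed scaled pileup was 37.9, 30.2, 26.0 and 17.1 tags in WT and Cxcr3-/- CMP/GMP and WT and Cxcr3-/- monocytes. Under scaling by background it was 26.7, 22.7, 42.8 and 19.6, so which of the 2 WT libraries was higher turned with the scale. The strongest regions at Itga2b and Gp9 were called in CMP/GMP only, and a further region at Gp9 was called in WT monocytes only.

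CMP/GMP-only and CMP/GMP-high regions were also present in the Pf4 locus. Downstream of Cxcl3, chr5:90789307-90790101 had 46, 89, 32 and 22 tags in WT and Cxcr3-/- CMP/GMP and WT and Cxcr3-/- monocytes. Its log2 ratio of monocytes to CMP/GMP was −1.02 in WT (−1.72 to −0.33) and −1.46 in Cxcr3-/- (−2.21 to −0.78), which became 0.21 and −0.85 under scaling by background. At chr5:90775766-90776013, 3331 bp downstream of the Pf4 start, 17 and 15 tags were called in WT and Cxcr3-/- CMP/GMP only. The strongest region of the locus, chr5:90742003-90742443, 29992 bp upstream of Pf4, had 80, 170, 97 and 89 tags and a fold at or above that of at least 96.6% of the intervals of its list.

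The protease gene Dpp4 had open chromatin just inside the gene in all 4 libraries. At chr2:62411674-62412304 the pileup was 24 (WT) and 51 (Cxcr3-/-) tags in CMP/GMP and 23 (WT) and 26 (Cxcr3-/-) in monocytes, or 30.3, 39.5, 20.6 and 29.6 scaled tags. The annotated start base itself, at the end of that region, lay in an interval of Cxcr3-/- monocytes only. In log2 terms the ratio of Cxcr3-/- to WT was 0.38 in CMP/GMP (−0.34 to 1.15) and 0.52 in monocytes (−0.35 to 1.39; 0.00 under scaling by background), and that of monocytes to CMP/GMP −0.55 in WT and −0.42 in Cxcr3-/-, or 0.67 and 0.20 under scaling by background. All 4 counting intervals spanned 0. Ndufaf6 (0.07), Ube2e3 (0.09) and Plekha5 (0.10) had the nearest profiles, and 1962 genes lay within 0.5.

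In the Dpp4 locus the highest region was upstream. It lay at chr2:62441012-62441678, 28781 bp before the start, with 75, 115, 73 and 94 tags in WT and Cxcr3-/- CMP/GMP and WT and Cxcr3-/- monocytes. The log2 ratio of Cxcr3-/- to WT was −0.09 in CMP/GMP (−0.52 to 0.35) and 0.71 in monocytes (0.25 to 1.17), the latter 0.19 under scaling by background. WT monocytes were the lowest of the 4 after median scaling. Under scaling by background their log2 ratio to WT CMP/GMP was 0.69 (0.21 to 1.18). Within the gene, chr2:62408744-62409022 and chr2:62411232-62411547 were called in CMP/GMP only, with 12 and 29 tags and with 18 and 32 tags in WT and Cxcr3-/-. A weak monocyte-only call of 10 and 8 tags lay 13448 bp inside the gene.

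Over all members the genotypes were close, and no region called in both libraries with a mean of at least 30 tags was more than 2-fold apart. In CMP/GMP 0 of 21 lay more than 2-fold above WT in Cxcr3-/- (0.139% of all regions) and 0 more than 2-fold lower (0.136%). In monocytes the counts were 0 of 17 higher (0.264% of all) and 0 lower (0.401%), and under scaling by background 2 were lower, beside 9.21% of all regions. The members' median log2 ratios were 0.14 and −0.02, beside 0.05 and 0.00 over all regions. Of 14 regions with a value in both cell types, 6 had the same sign of the genotype ratio in both, beside 43.3% of all regions.

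**Figure D3:**
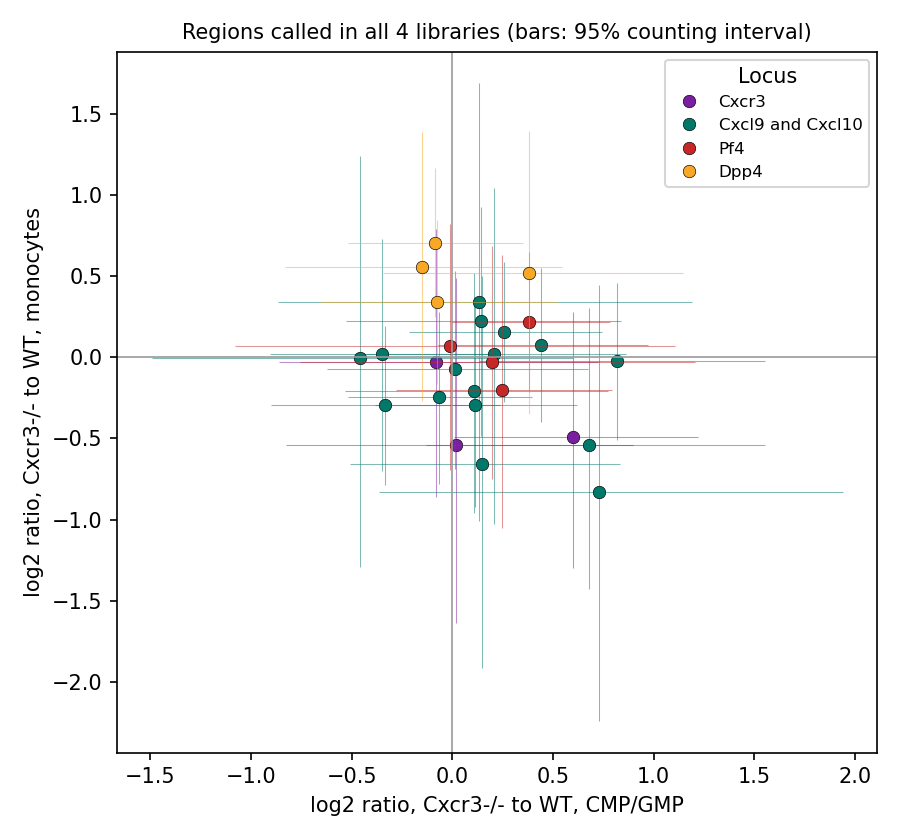
Log2 ratio of scaled pileup, Cxcr3-/- to WT, in CMP/GMP (horizontal axis) and in monocytes (vertical axis) for the 27 regions called in all 4 libraries, coloured by locus, with 95% counting intervals as bars. Of these, 7 are above 0 in both cell types and 4 below 0 in both; the 4 Dpp4 regions lie at 0.34 to 0.71 in monocytes, and at −0.17 to 0.19 when the background sets the scale.

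Between cell types the members moved further. In WT, 1 of 15 regions was more than 2-fold higher in monocytes (10.8% of all regions), the Art3 region upstream of Cxcl10, and 1 more than 2-fold lower (6.67%), the region downstream of Cxcl3. In Cxcr3-/-, 0 of 21 were more than 2-fold higher (10.9% of all) and 4 more than 2-fold lower (9.77%). These were the Cxcr3 start (−1.32, −2.05 to −0.64), the region downstream of Cxcl3, and chr5:92318621-92318945 and chr5:92270494-92271357 downstream of Cxcl9. The regions downstream of Cxcl9 were more than 2-fold lower in WT as well, at −1.125 and −1.216. Their mean in the WT libraries was below 30 tags, so the WT count leaves them out. The median log2 ratio was −0.18 in WT and −0.38 in Cxcr3-/-, beside 0.03 and −0.10 over all regions, and these medians became 1.05 and 0.23 beside 1.26 and 0.52 under scaling by background. Under that scaling the counts past 2-fold were 10 higher (66.5% of all regions) and 0 lower (0.662%) in WT and 3 higher (26.5%) and 1 lower (2.57%) in Cxcr3-/-. With the median scaling the sign was the same in both genotypes for 13 of 15 regions, 5 higher and 8 lower in monocytes, beside 74.9% of all regions. The comparisons by genotype and by cell type share their libraries.

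**Figure D4:**
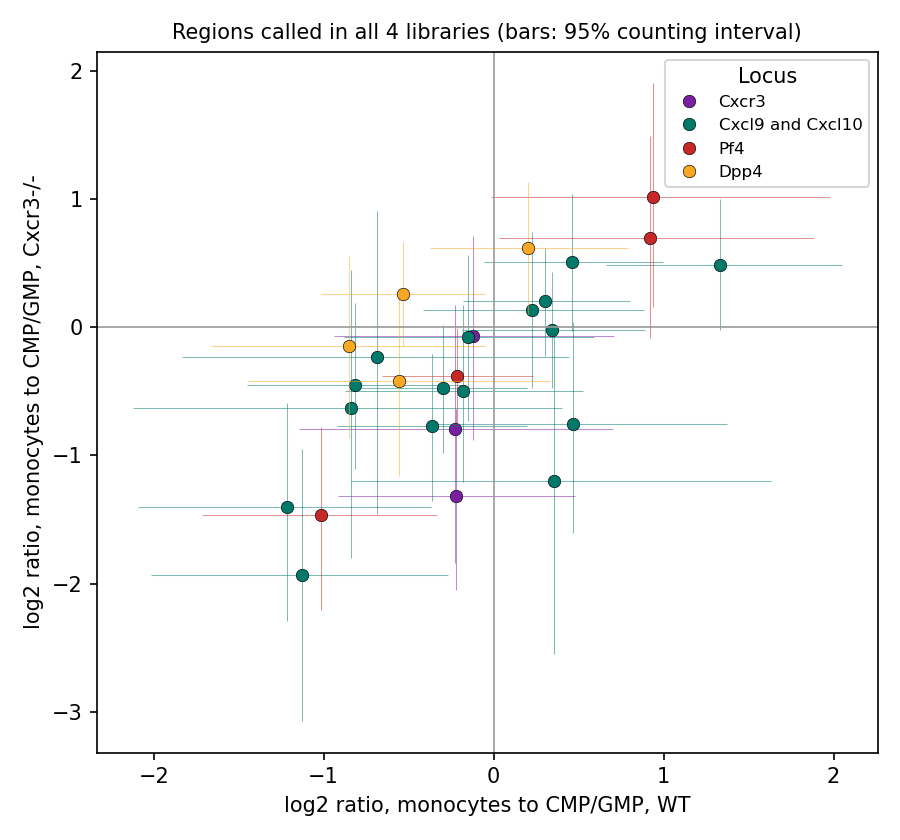
Log2 ratio of scaled pileup, monocytes to CMP/GMP, in WT (horizontal axis) and in Cxcr3-/- (vertical axis) for the 27 regions called in all 4 libraries, coloured by locus, with 95% counting intervals as bars. Of these, 7 are above 0 in both genotypes, the 2 Pf4 start regions among them, and 16 below 0 in both; with background scaling all 27 are above 0 in WT and 18 in Cxcr3-/-.

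Cxcr3 is the only member on chromosome X, so that chromosome is set beside the others. The median log2 ratio of regions on chromosome X was 0.02 and 0.12 for Cxcr3-/- to WT in CMP/GMP and monocytes, beside 0.05 and 0.00 on the autosomes, and −0.21 in both genotypes for monocytes to CMP/GMP, beside 0.04 and −0.10. Over all protein-coding genes the gene-end region had a median of 0.08 and −0.07 for genotype and of −0.10 and −0.27 for cell type.

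The other genes of the pathway, from lists written with earlier results of these data known, were read at regions within 1 kb of either gene end. Of 12 other CXC ligand genes 2, 3, 8 and 8 had a call in WT and Cxcr3-/- CMP/GMP and WT and Cxcr3-/- monocytes. Cxcl2 and Cxcl16 were called in all 4, while Cxcl3, Cxcl5, Ppbp and Cxcl12 (a ligand of CXCR4) were called in monocytes only, Cxcl12 with 18 and 21 tags. Cxcl1 had 10 tags in Cxcr3-/- monocytes alone. Over all protein-coding genes the shares with a call at a gene end ran from 57.5% to 61.0%.

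Of 9 other receptor genes 4, 4, 3 and 2 had a call. Cxcr4, which retains progenitors in bone marrow, was called in all 4 libraries with 64, 117, 66 and 52 tags. Ackr4, a scavenger of chemokines, was called in CMP/GMP only with 19 and 24 tags. Cxcr2, a neutrophil receptor, had 24 tags in Cxcr3-/- CMP/GMP alone and Cxcr5 had 13 in WT monocytes alone.

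Signalling genes were called almost throughout. Of 16 genes of G protein signalling 16, 16, 16 and 15 had a call. Pik3cg, the lipid kinase catalytic subunit that acts below chemokine receptors, had 57, 118, 66 and 29 tags, with monocytes to CMP/GMP at −1.47 in Cxcr3-/-. All 16 interferon and NF-kB genes had their strongest gene-end region called in all 4 libraries, beside 53.1% of all protein-coding genes. Irf1, a factor that induces Cxcl9 and Cxcl10, had 52, 106, 89 and 36 tags, or 65.7, 82.2, 79.9 and 40.9 with the median scaling. Cxcr3-/- monocytes were then lowest, at a log2 ratio of −0.97 to WT monocytes and −1.01 to Cxcr3-/- CMP/GMP. Under scaling by background they were no longer lowest, and the ratio of monocytes to CMP/GMP in WT went from 0.28 to 1.51.

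Of 4 factors tied to Cxcr3 expression in T cells, Tbx21 was called in WT monocytes alone (22 tags) and Stat4 in no library. Runx3 had 71, 123, 21 and 12 tags, with monocytes to CMP/GMP at −2.25 in WT and −2.81 in Cxcr3-/-. Of 10 other proteases that act on chemokines 7, 9, 10 and 10 had a call. Anpep, an aminopeptidase, had 15, 35, 46 and 27 tags and was 1.12 higher on the log2 scale in monocytes in WT, Mmp9 was called in monocytes only with 35 and 24 tags, and Ctsg, a granule protease, was at −2.42 for monocytes to CMP/GMP in Cxcr3-/-. Of 9 genes of proteoglycans and megakaryocyte factors 4, 6, 6 and 6 had a call, with Sdc4 (a cell-surface proteoglycan) at 1.35 and Nfe2 (a megakaryocyte and erythroid factor) at −1.05 for monocytes to CMP/GMP in Cxcr3-/-. Under scaling by background the ratios of monocytes to CMP/GMP in Cxcr3-/- became −0.86 for Pik3cg, −0.39 for Irf1, −2.19 for Runx3, −1.80 for Ctsg, −0.44 for Nfe2 and 1.97 for Sdc4. In WT, Runx3 became −1.03 and Anpep 2.35, and the sign turned at Pik3cg (−0.28 to 0.94) and Nfe2 (−0.87 to 0.35).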

How the data were processed

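Omni-ATAC-seq interval lists of 4 libraries, grouped by their labels, were analysed. Per the submitters' processing notes, reads were handled with Trim Galore, Bowtie2 and SAMtools on mm10, and the sources used here name no peak caller. The deposited score of each interval went unused. Fold enrichment, as deposited, is the authors' ratio of summit pileup to its expected background, and −log10 p and −log10 q, as deposited, are the authors' own values for each summit. They served to rank and filter within a list. Fold and −log10 p together gave the whole-number summit pileup, assuming a Poisson background and 1 added tag, within a tolerance of 0.001; this failed for 0, 2, 1 and 0 intervals of the WT and Cxcr3-/- CMP/GMP and WT and Cxcr3-/- monocytes. The scripts were tested on simulated data.

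Intervals that shared at least 1 base were merged, and the highest pileup per library was kept. The ratio of scaled pileups carries an exact 95% Clopper-Pearson interval. A difference between ratios carries a normal approximation from the tag counts instead. Counts past 2-fold used regions with a call in each library and a mean of at least 30 tags. The alternative background scaling used the expected background, 1.59, 2.42, 0.956 and 1.08 tags in the same order. Gene spans and starts came from RefSeq (GRCm38.p6), without exons. The genes, lists, motifs and named-gene rule (list members called in 1 or 2 libraries or past 2-fold, and the 3 genes with the nearest profiles) were chosen with earlier results of these data known. Python 3.11.15, pandas 2.3.3 and scipy 1.17.1 were used. Markers of other cell types were read at gene ends; besides those in the results, 3, 2, 4 and 4 of 5 B cell markers and 3 of 4 erythroid markers in every library had a call. Some items named by these rules are not reported here.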

Additional observations from a re-analysis of the deposited data

Results flagged for a closer look

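At 3 of 14 member regions the Cxcr3-/- to WT ratio differed between the cell types by more than counting error, beside 11.5% of all regions (2375 of 20579), and with 1 library per group the difference was not tested against replicates. The intervals of these differences are normal approximations from the tag counts, not the exact intervals given for single ratios. At the Cxcr3 start the log2 ratio in CMP/GMP minus that in monocytes was 1.09 (approximate 95% counting interval 0.16 to 2.03), from 0.60 and −0.49. At the Art3 region 20203 bp upstream of Cxcl10 it was 0.84 (0.03 to 1.66), from 0.82 and −0.02. At the region 28781 bp upstream of Dpp4 it was −0.79 (−1.40 to −0.18), from −0.09 and 0.71, the opposite order. Under scaling by background these differences were 1.70 (0.77 to 2.64) at the Cxcr3 start, 1.45 (0.64 to 2.27) at the Art3 region and −0.18 (−0.79 to 0.42) at the Dpp4 region, where the interval then spanned 0.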

How the results depend on the processing

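Of 78 alternative values for the counts, patterns and medians of the members, 59 were classed as the same. That class does not mean unchanged, as it allows counts a set fold of change and medians a shift within approximate counting error. With a 100 kb flank the count of WT CMP/GMP went from 37 to 51 and that of WT monocytes from 50 to 72, both in that class. Of 16 alternative medians 4 took the other sign: those for cell type in both genotypes under scaling by background, and that for genotype in monocytes (−0.02) with same-chromosome scaling and with merging within 150 bp (0.01 in each). A 10 kb flank left 17, 21, 19 and 17 intervals of the WT and Cxcr3-/- CMP/GMP and WT and Cxcr3-/- monocytes. Merging within 150 bp left 0 regions called in Cxcr3-/- only and moved the median of monocytes to CMP/GMP in Cxcr3-/- to −0.14. Scaling by background moved the median of all regions to 0.14 and −0.51 for genotype in CMP/GMP and monocytes and to 1.26 and 0.52 for cell type in WT and Cxcr3-/-. The members' median moved with it to −0.54 for genotype in monocytes, from −0.18 to 1.05 for cell type in WT and from −0.38 to 0.23 in Cxcr3-/-. Under that scaling 2 members were more than 2-fold lower in Cxcr3-/- monocytes than in WT (9.21% of all regions), 10 were higher (66.5%) and 0 lower (0.662%) in WT monocytes than in CMP/GMP, and 3 were higher (26.5%) and 1 lower (2.57%) in Cxcr3-/-. At a mean of at least 60 tags, where fewer regions were tested, the cell-type counts were 0 higher (6.34% of all regions) and 0 lower (2.96%) in WT. In Cxcr3-/- they were 0 higher (6.54%) and 0 lower (6.17%). With no minimum the cell-type counts were 1 higher (6.86% of all regions) and 3 lower (16.5%) in WT. In Cxcr3-/- they were then 1 higher (9.92%) and 5 lower (9.04%). No paired analysis was possible because each group has 1 library and the labels carry no replicate numbers.

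Median pileups of 21 to 29 tags limit what a single region can show, and a missing call is not a pileup of 0. The 4 libraries differ in the length of their lists and in background, and depth and cell type cannot be told apart in the cell-type ratios.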
